A study of Homo sapiens with 18 samples.

Results

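The tamoxifen response shared by 3 lines of RWPE1 cells was measured as the main effect of treatment over all 18 of the 18 RNA-seq libraries, 9 with tamoxifen and 9 with vehicle. RWPE1 is an established line of benign human prostate epithelial cells. Each line stably carried 1 MACC, a construct that joins the DNA-binding domain of a transcription factor to the tamoxifen-responsive domain ERT2 and a 3X FLAG tag. The neutral line (3X) carried the tag alone, the repressive line (KRAB) added the KRAB domain and the activating line (VP64) added the VP64 domain. Every line was selected with blasticidin, grown in Keratinocyte SFM medium and treated for 48 h with ethanol vehicle or tamoxifen, with 3 biological replicates per group. The labels disagree on the dose of tamoxifen, which is 1.5 uM by the treatment entry of each sample and 1.25 uM by the protocol text. All lines received both an inducible construct and the drug, and no line without a construct was among the libraries, so an effect of tamoxifen itself and an effect of a MACC moved to the nucleus cannot be told apart.

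Tamoxifen is a selective modulator of the estrogen receptor, and in ERT2 fusions it releases the fused protein into the nucleus. It is also known to bind enzymes of late cholesterol synthesis, including EBP. Cells sense sterols through SREBP transcription factors, which are cleaved when membrane sterol is low and then switch on genes of cholesterol, fatty acid and phospholipid synthesis. Basal epithelial cells of the prostate are known by the keratins KRT5 and KRT14 and by hemidesmosome proteins such as ITGB4 and COL17A1, whereas KRT8 and KRT18 mark luminal cells.

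Total counts per library lay between 675609 and 792282, and a gene with 0 counts in a library could have a level of up to 3.79 to 4.44 CPM (3 counts, counting error only). Basal and luminal markers were mixed in the table. KRT5 held 680 to 1135 counts and KRT14 435 to 857, whereas the basal regulator TP63 held 4 to 25. Of the luminal markers, KRT8 held 513 to 1011 counts, KRT18 14 to 36, and KLK3 and FOLH1 were listed at 0. A 0 in a marker's own row does not show that the gene was silent, because the row of HMGCS1, a gene that most cells use, held 0 to 8 counts per library and that of IDI1 0 to 6. This limit holds for all marker counts given here. Counts of ZNF10, the source of the KRAB domain, were present only in the KRAB line (24 with tamoxifen and 16 with vehicle, summed over 3 libraries each). Of the fibroblast markers, 8 of 10 were at 0 in every library, and their summed counts were 4 to 15 with vehicle and 1 to 17 with tamoxifen. Endothelial markers summed to 0 to 5 counts in both groups. Of the 9 listed 8 had a row, and 4 of these 8 were at 0. Immune markers summed to 11.7 to 29.9 with vehicle and 12.2 to 29.3 with tamoxifen, with 7 of 11 at 0, among them PTPRC. Neuroendocrine markers summed to 2 to 7 and 0 to 6, with 4 of 9 at 0.

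A feature of the count table bears on every gene named here. Of the counts that could be matched to the annotation, 87.4% to 91.2% per library sat at genes with exons that lie across from exons of a gene on the other strand. The libraries were made with a stranded kit, and the strand setting used for counting is not given in the sources used here. Each entry of the table is therefore called a row. Its partner is the opposite-strand gene that shares the most exonic bases, and it is named beside many rows. A row named without a partner is not thereby free of overlap. Whether the counts of a row came from the row's gene or from its opposite partner was not tested. Of the rows called changed below and matched to the annotation, 225 of 275 (81.8%) had such a partner, against 3828 of 5635 (67.9%) of all matched rows tested.

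With a model of line and treatment over the 18 libraries, 291 of 5816 rows tested (5.00%) changed with tamoxifen at a DESeq2 adjusted p below 0.05. Of these, 155 rose (2.67%) and 136 fell (2.34%), and 917 rows had an unadjusted p below 0.05. The changes were mostly small: 20 rows rose and 7 fell by more than 1 on the log2 scale. The direction was the same in all 3 lines for 254 of the 291 rows (87.3%), against 30.8% of all rows tested. The 3 lines entered the call, so this share is partly fixed by it. Among the rows that rose 135 of 155 held their direction, and among those that fell 119 of 136. The default scaling by median of ratios put the share of higher calls at 53.3%, and scaling by total counts put it at 42.5% of 327 calls. Between these scalings the median of all rows moved by -0.0381 over the lines and by -0.135 in the repressive line, and no named row changed sign under either.

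Shown here are 4 promoters, those of 3 lipid genes and of the aldolase gene ALDOC, chosen after the values were seen because these genes stand opposite or beside 4 of the leading rows. The sequences are RefSeq promoters of build GRCh38.p14, read 5′ to 3′ on the gene's strand, and each is a stretch upstream of the transcription start. Capitals mark TCACNCCAC, a 9-letter form of the sterol regulatory element that SREBP proteins bind, in ALDOC and ALDH3A2, and CCAAT or its reverse complement ATTGG, the box bound by NF-Y, in HMGCS1 and FDPS.
ALDOC, chr17:28576985-28577073, minus strand: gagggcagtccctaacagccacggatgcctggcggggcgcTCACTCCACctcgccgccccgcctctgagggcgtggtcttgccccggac
ALDH3A2, chr17:19648579-19648667, plus strand: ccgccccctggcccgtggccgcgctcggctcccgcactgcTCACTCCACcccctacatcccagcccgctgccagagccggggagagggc
HMGCS1, chr5:43313468-43313607, minus strand: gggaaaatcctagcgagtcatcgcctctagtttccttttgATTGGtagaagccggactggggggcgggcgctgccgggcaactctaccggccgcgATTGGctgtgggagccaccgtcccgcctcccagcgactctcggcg
FDPS, chr1:155308650-155308859, plus strand: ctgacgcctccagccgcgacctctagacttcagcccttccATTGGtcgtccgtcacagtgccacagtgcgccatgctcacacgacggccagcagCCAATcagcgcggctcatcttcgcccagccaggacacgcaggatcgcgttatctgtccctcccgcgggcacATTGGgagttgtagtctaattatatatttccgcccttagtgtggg

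The 9-letter element began 138 bases before the start of ALDOC and 132 bases before that of ALDH3A2. The 12 genes searched were chosen after the values were seen, because their own row, opposite row or neighboring row rose. Searched on both strands, the element was in 1.13% of all 35116 promoters of 300 bases and in 1.39% of all genes with a promoter. Of the 12 genes, 10 matched the promoter table by symbol, and among these the element was in ALDOC and ALDH3A2. Of ALDOC and ALDH3A2, ALDOC is a glycolytic gene and in neither lipid list. ACAT2 and FASN did not match. The 10 were ALDOC, ALDH3A2, HMGCS1, FDPS, IDI1, LSS, PCYT2, SCD, FADS1 and FADS2. CCAAT was in 8 of the 10, against 34.6% of all promoters and 39.7% of all genes with a promoter, and was not found within ALDOC or FADS1. Because the 12 genes were chosen by their values, these shares are no test of enrichment. The matches describe the letters in short windows and show no binding.

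Rows opposite cholesterol synthesis genes rose together. Of the 7 such rows tested, 5 were called and all 5 rose, against 2.67% of all rows tested that were called higher. The median log2 fold change was 0.96 over the 7 rows, against -0.0033 over all rows tested. The list median was 0.68 in the neutral, 1.07 in the repressive and 1.03 in the activating line. The 5 rows lay opposite ACAT2, HMGCS1, IDI1, FDPS and LSS, which act in this order from the joining of acetyl-CoA units to the closure of the sterol ring. With 1 line left out at a time the list median stayed between 0.80 and 1.21.

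CTD-2636A23.2 (chr5:43287703-43290941 in GRCh37, plus strand) had all of its 2497 exonic bases opposite exons of HMGCS1, the synthase that makes HMG-CoA. Its normalized counts were 282, 292 and 275 with vehicle and 524, 462 and 379 with tamoxifen in the neutral line. They were 282, 210.2 and 222 against 1271, 1465 and 1442 in the repressive line, and 216, 184 and 196 against 525, 477 and 693 in the activating line. All 9 tamoxifen libraries stood above all 9 vehicle libraries. The log2 fold change was 1.58 ± 0.22 (SE) over the lines, with a DESeq2 adjusted p of 1.08e-10. By line it was 0.69 ± 0.14, 2.55 ± 0.13 and 1.51 ± 0.14 in the neutral, repressive and activating line, and these effects differed (interaction, DESeq2 adjusted p 1.28e-18).

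RUSC1-AS1 (chr1:155286654-155293967 in GRCh37, minus strand) overlapped FDPS, which makes the farnesyl diphosphate used for sterols and protein prenylation, by 693 exonic bases on the opposite strand. Its counts were 607, 666 and 620 against 954, 1050 and 1019 in the neutral line. They were 987, 732 and 724 against 1687, 1693 and 1653 in the repressive line, and 769, 672 and 654 against 1229, 1214 and 1534 in the activating line. Vehicle and tamoxifen did not overlap in any line. The log2 fold change of 0.88 ± 0.08 had the smallest adjusted p of the named rows (DESeq2, 4.81e-28), and the lines did not differ by the interaction test (adjusted p 0.28).

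TCP1, a chaperonin subunit, lies opposite ACAT2, the thiolase that opens the pathway, over 454 of its 4883 exonic bases. Its counts were 340 to 401 with vehicle and 504 to 559 with tamoxifen in the neutral line, 384 to 543 and 801 to 926 in the repressive line, and 264 to 455 and 517 to 815 in the activating line. None of the lines had overlapping groups, and the log2 fold change was 0.82 ± 0.11 (DESeq2 adjusted p 2.42e-11). ACAT2's own row, in contrast, held 78.6 counts with vehicle and 91.6 with tamoxifen on average, a log2 fold change of 0.23 ± 0.14 that was not called (adjusted p 0.345). IDI2-AS1, opposite the isomerase IDI1, averaged 89.1 with vehicle and 172 with tamoxifen, with a log2 fold change of 0.96 ± 0.14 (adjusted p 1.66e-09). Its effect differed between lines (interaction adjusted p 0.00173), from 0.42 ± 0.18 in the neutral to 1.58 ± 0.19 in the repressive line. AP001468.58, opposite lanosterol synthase (LSS), was a low row that rose from a mean of 10.6 to 24.8 counts (log2 fold change 1.24 ± 0.27, adjusted p 1.72e-04).

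The own rows of the cholesterol genes held few counts. Of 12 tested, 11 had a positive log2 fold change with a median of 0.55, and 0 were called by DESeq2, edgeR or limma-voom. By unadjusted p, 4 of the 12 were below 0.05. The 3 with the largest values were INSIG1 (1.34 ± 0.57), the sterol-regulated retention protein, FDPS (1.11 ± 0.37) and SQLE (1.03 ± 0.51), all with means below 13 counts in both groups. Those 3 rows received no adjusted p because independent filtering removed them. SREBF2, which encodes an SREBP, stood at 20.9 counts with vehicle and 20.4 with tamoxifen.

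USP24, which encodes a deubiquitinase, had no exon of any gene opposite it. Its counts were 67.7, 51.7 and 67.0 against 120, 111 and 129 in the neutral line. They were 116, 92.5 and 68.0 against 159, 179 and 176 in the repressive line, and 68.1, 68.6 and 71.5 against 158, 198 and 148 in the activating line. No line showed an overlap of the groups, and the effect was close to even across lines at 0.96 ± 0.20, 0.90 ± 0.19 and 1.28 ± 0.20. Over the lines the log2 fold change was 1.04 ± 0.12 (DESeq2 adjusted p 1.26e-15).

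**Figure D1:**
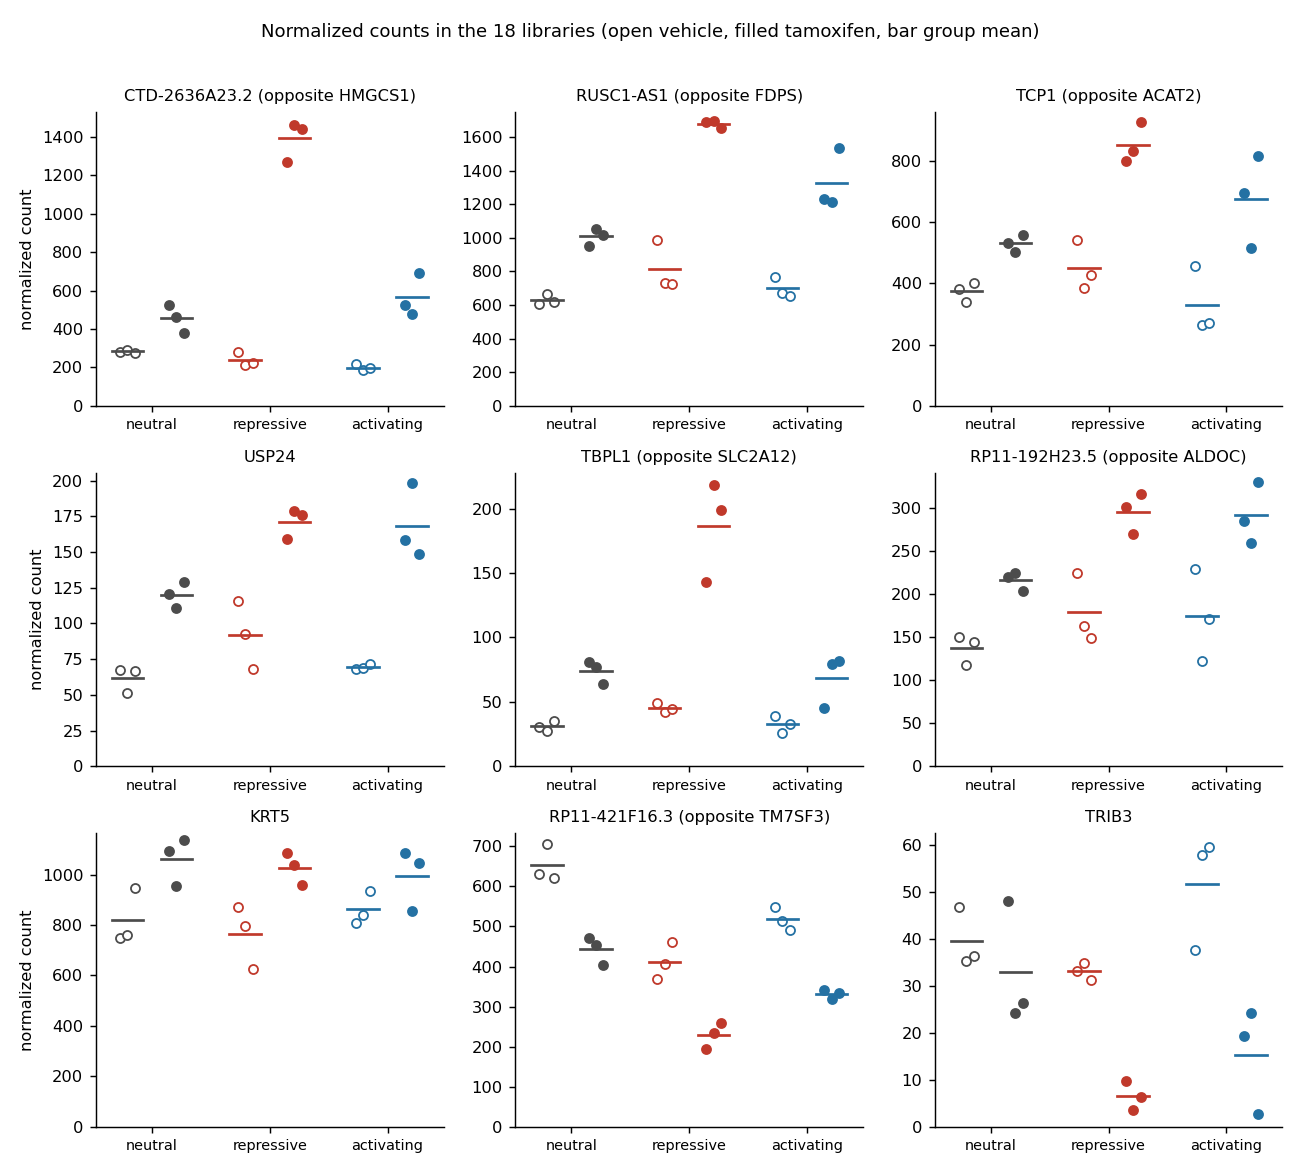
Normalized count (y axis, from 0) of 9 rows in the 18 libraries, by line on the x axis, with open circles for vehicle, filled circles for tamoxifen and bars for the group mean of 3 libraries. The rows opposite HMGCS1, FDPS and ACAT2 and the rows of USP24, TBPL1 and that opposite ALDOC stood higher with tamoxifen in every line, RP11-421F16.3 stood lower in every line, and TRIB3 fell from 33.2 to 6.49 in the repressive line with overlapping groups in the neutral line.

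Of 7 own rows of fatty acid synthesis genes 4 were called, all higher, against 2.67% of all rows tested that were called higher, and the median of the 7 was 0.65. ACSS2 (0.65 ± 0.34) and ACLY (0.53 ± 0.34) received no adjusted p. SCD, the stearoyl-CoA desaturase, had 16.6, 21.0 and 19.7 counts against 61.7, 40.9 and 50.9 in the neutral line. In the repressive line the counts were 45.6, 37.7 and 23.9 against 55.3, 96.3 and 38.8, with 1 tamoxifen library inside the vehicle range, and in the activating line 39.6, 32.8 and 34.4 against 56.8, 79.1 and 88.4. Its log2 fold change was 1.09 ± 0.19 (DESeq2 adjusted p 1.55e-06). FADS1 and FADS2, desaturases of polyunsaturated fatty acids, lie on opposite strands. They share 490 exonic bases, of 10228 in FADS1 and 10553 in FADS2, so their rows may not be fully separate measurements. How many counts came from the shared bases was not tested. FADS1 rose from 20.1 to 42.6 counts (1.12 ± 0.24, adjusted p 1.36e-04) and FADS2 from 21.2 to 35.5 (0.84 ± 0.22, adjusted p 0.0026). The call of FADS2 was lost without the activating line (adjusted p 0.15), and its value in the repressive line was 0.28 ± 0.32. FASN, the fatty acid synthase, rose from 33.3 to 51.0 (0.60 ± 0.19, adjusted p 0.0239), but the call was lost with edgeR (adjusted p 0.0538), without any 1 of 5 libraries (adjusted p up to 0.0868) and without the repressive line (0.136) or the activating line (0.261), where the log2 fold changes were 0.63 and 0.45. SREBF1 itself stood at 109 and 128 counts, with a log2 fold change of 0.22 ± 0.10 that was not called (adjusted p 0.16).

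NPB, a neuropeptide gene, lies opposite PCYT2, an enzyme of phosphatidylethanolamine synthesis, over 1948 of its 2161 exonic bases. It rose from 41.8 to 81.2 counts (0.95 ± 0.18, adjusted p 1.12e-05). The groups did not overlap in any line, although 1 neutral vehicle library stood at 14.8 against 45.8 and 55.5 in the other two. RP11-192H23.5 lies within ALDOC, an aldolase, with 296 of its 298 exonic bases opposite. Its log2 fold change was nearly the same in each line, at 0.65 ± 0.18, 0.73 ± 0.18 and 0.74 ± 0.18, and 0.71 ± 0.11 over the lines (adjusted p 9.10e-09). SLC47A2, a transporter of organic cations, shares no exonic bases with ALDH3A2, a fatty aldehyde dehydrogenase, but their gene bounds overlap on opposite strands. It rose from 78.3 to 128 counts (0.73 ± 0.13, adjusted p 5.49e-06), with overlap of the groups only in the activating line, where the lowest tamoxifen library held 87.5 and the highest vehicle library 87.9.

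Outside lipid synthesis, TBPL1 ranked first of the named rows by its smallest effect in any line, 1.09 ± 0.27 in the activating line. TBPL1 encodes a TBP-like initiation factor, and 2852 of its 5039 exonic bases lie opposite SLC2A12, a glucose transporter. The counts were 30.2, 27.7 and 35.5 against 80.9, 77.0 and 64.1 in the neutral line and 49.4, 42.2 and 44.1 against 143, 218 and 199 in the repressive line. In the activating line they were 38.6, 26.1 and 32.6 against 45.6, 79.1 and 82.0. The lowest activating tamoxifen library was close to the vehicle range, and none crossed it. The log2 fold change was 1.49 ± 0.17 (DESeq2 adjusted p 9.28e-16), and an interaction was not called (adjusted p 0.168). RP11-521C20.3, with all of its 461 exonic bases opposite BMF, a BH3-only promoter of apoptosis, rose from 36.7 to 76.3 counts (1.06 ± 0.16, adjusted p 1.18e-08). RP11-875O11.1, opposite RHOBTB2, rose from 218 to 346 counts (0.63 ± 0.10, adjusted p 4.51e-08). All 10 of the named rows that rose, these and those described above, kept their call in every alternative setting that gave an adjusted p, and all 10 were called from each pair of lines as well.

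**Figure D2:**
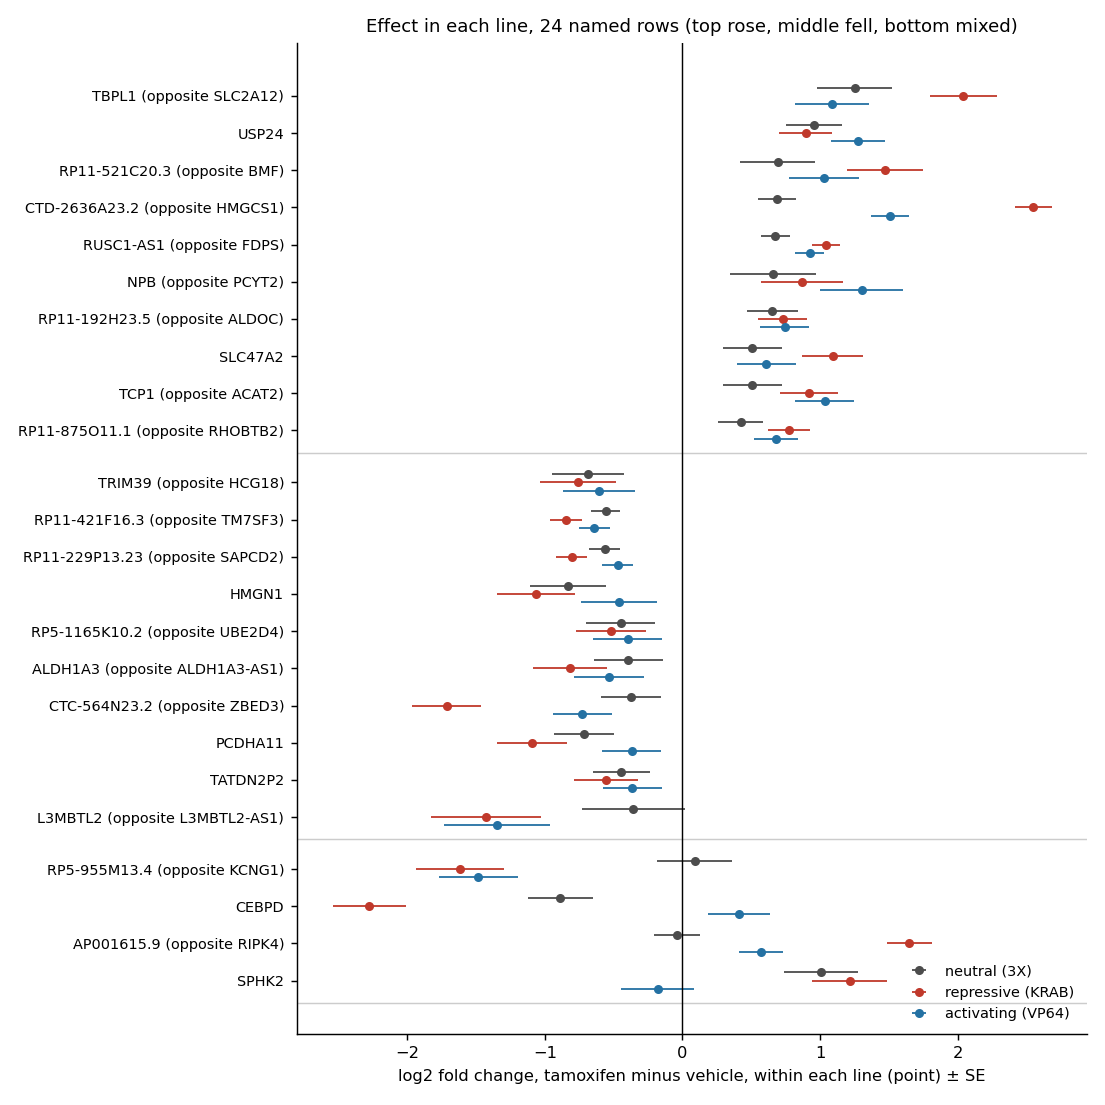
Log2 fold change of tamoxifen over vehicle within each line (x axis, points with SE bars) for 24 rows chosen by rule (y axis), with 10 that rose at the top, 10 that fell in the middle and 4 of mixed direction at the bottom. In the top and middle blocks all points lie on one side of 0, the repressive line lies farthest from 0 in 6 of the 10 that rose and all 10 that fell, and the opposite of HMGCS1 spreads from 0.69 to 2.55.

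Part of the basal epithelial list rose. Of 24 own rows tested 6 were called (5 with edgeR and 5 with limma-voom), all higher, against 2.67% of all rows tested, and the list median was 0.26. The called rows were KRT5, KRT14 and KRT15, the keratins of basal cells, ITGB4 and COL17A1, components of hemidesmosomes, and TRIM29. KRT5 counts were 751, 759 and 948 against 1094, 953 and 1138 in the neutral line, 625 to 870 against 957 to 1085 in the repressive line and 810 to 934 against 857 to 1085 in the activating line. The groups were apart in the repressive and the neutral line and overlapped in the activating line. KRT5 rose by a log2 fold change of 0.34 ± 0.08 (DESeq2 adjusted p 4.44e-04) and KRT14 by 0.39 ± 0.08 (adjusted p 1.90e-04). KRT15 rose from 28.2 to 54.1 counts (0.91 ± 0.20, adjusted p 1.82e-04) and ITGB4 from 85.3 to 143 (0.72 ± 0.14, adjusted p 3.65e-05). These 4 kept their call in every setting that gave an adjusted p, whereas COL17A1 (0.36 ± 0.12, adjusted p 0.0237) lost it with edgeR, without the neutral or the repressive line and without any 1 of 5 libraries (adjusted p up to 0.0711), and had no common direction (-0.03 in the activating line). TRIM29 lost its call without the repressive line (adjusted p 0.358) and without the activating line (0.14). The other 18 basal rows were not called, among them KRT17, with 701 and 780 counts (0.10 ± 0.14), and KRT6A (-0.43 ± 0.16, adjusted p 0.0656).

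Of the luminal list 1 of 12 own rows was called, and 7 of the 12 had a positive value. The list median was 0.27, close to that of the basal list. By line it was 0.305 in the neutral, -0.17 in the repressive and 0.185 in the activating line. The row of KRT8 fell by 0.21 ± 0.06 (adjusted p 0.015), and 525 of its 6881 exonic bases lie opposite KRT18. Its log2 fold change was -0.26 ± 0.09 in the neutral and -0.33 ± 0.08 in the activating line, where the groups did not overlap, and -0.03 ± 0.08 in the repressive line, where they did. The call was lost with edgeR (adjusted p 0.0555), without the neutral line (adjusted p 0.169) and without the activating line (adjusted p 0.27).

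Among rows that fell, RP11-421F16.3 and RP11-229P13.23 were called in each line on its own. RP11-421F16.3 lies opposite TM7SF3, which encodes a membrane protein, and held 631, 707 and 621 counts against 471, 454 and 404 in the neutral line. The counts were 369, 407 and 460 against 195, 234 and 260 in the repressive line and 548, 515 and 491 against 342, 320 and 334 in the activating line. In each line the groups were apart, and the log2 fold change over lines was -0.68 ± 0.07 (DESeq2 adjusted p 1.94e-16). RP11-229P13.23, whose 748 exonic bases all lie opposite SAPCD2, a regulator of spindle orientation, fell from 763 to 499 counts (-0.61 ± 0.08, adjusted p 1.43e-12), also with no overlap in any line. CTC-564N23.2, within ZBED3, fell from 90.1 to 50.5 counts (-0.89 ± 0.16, adjusted p 2.73e-06), with groups apart in every line and an effect of -1.72 ± 0.25 in the repressive line against -0.37 ± 0.22 in the neutral line (interaction adjusted p 0.0054).

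The other rows that fell were of varied kinds. HMGN1, a nucleosome-binding protein, fell from 70.8 to 41.4 counts (-0.78 ± 0.17, adjusted p 1.34e-04), and PCDHA11, a clustered protocadherin, from 91.0 to 57.9 (-0.69 ± 0.14, adjusted p 4.87e-05). TRIM39, a ubiquitin ligase whose exons overlap the noncoding HCG18, fell by 0.68 ± 0.15 (adjusted p 3.41e-04). ALDH1A3, which makes retinoic acid and overlaps ALDH1A3-AS1, fell by 0.57 ± 0.15 (adjusted p 0.00369), and 1 neutral tamoxifen library at 43.8 counts stood apart from the others at 93.5 and 84.8. L3MBTL2, a Polycomb protein overlapping L3MBTL2-AS1, fell by 1.03 ± 0.25 (adjusted p 9.52e-04). Both ALDH1A3 and L3MBTL2 lost the call without the repressive line (adjusted p 0.128 and 0.147). TATDN2P2, a pseudogene that can share reads with its parent gene, fell by 0.45 ± 0.13 (adjusted p 0.00694), a call lost without the neutral line (0.0668) and without the repressive line (0.13). RP5-1165K10.2, opposite UBE2D4, fell by 0.46 ± 0.14 (adjusted p 0.0224), but its call was lost with edgeR (adjusted p 0.0568), without any 1 of the lines and without the first neutral vehicle, the first neutral tamoxifen or the second repressive vehicle library (adjusted p 0.0523, 0.0685 and 0.0527).

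Within single lines, 45 rows were called in the neutral (0.774%), 561 in the repressive (9.65%) and 163 in the activating line (2.80%). Of the 291 rows called over the lines, 32 were also called the same way in the neutral line, 207 in the repressive and 94 in the activating line. Only 11 were called in all 3, and 51 in none on its own. Among the 254 rows of one direction the effect was largest in the repressive line for 168, in the activating line for 63 and in the neutral line for 23. The median absolute log2 fold change of these 254 was 0.30 in the neutral, 0.63 in the repressive and 0.38 in the activating line, against 0.31, 0.42 and 0.34 over all rows tested.

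Of the 11 rows called in every line 8 rose, among them TBPL1, USP24, RUSC1-AS1, CTD-2636A23.2, RP11-192H23.5, TREH and Z98256.1, and 3 fell, which were RP11-421F16.3, RP11-229P13.23 and EIF2AK1. EIF2AK1, a kinase that phosphorylates eIF2alpha, overlaps AIMP2, a scaffold of the tRNA synthetase complex, by 532 bases on the opposite strand. Its counts were 1049, 985 and 990 against 799, 866 and 796 in the neutral line, 945 to 1132 against 498 to 523 in the repressive line, and 891 to 1054 against 527 to 688 in the activating line. Its effect differed between lines by the interaction test (adjusted p 1.36e-04) and was largest in the repressive line (-0.997 ± 0.10). TREH, opposite PHLDB1, was even across the lines, at 0.40, 0.35 and 0.42 on the log2 scale.

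Separation of the libraries gave a shorter list. In 43 of the 291 rows the vehicle and tamoxifen libraries did not overlap in any of the 3 lines in one direction, 23 higher and 20 lower, against 44 of all 5816 rows tested (0.757%). The call and the separation came from the same counts, so this contrast is largely fixed in advance. Beyond those named above, and chosen for this separation after the values were seen, the largest log2 fold change was that of CTD-2026K11.1, opposite CSPG4, a proteoglycan. It rose from a mean of 5.00 counts to 33.6 (2.26 ± 0.39, adjusted p 5.72e-07), most in the repressive line, where the 3 vehicle libraries held 0 to 8.27 counts and the tamoxifen libraries 70.8 to 83.5. RP11-728F11.4, opposite FXYD6, a regulator of ion transport, rose from 20.1 to 49.95 (1.45 ± 0.23), and UBR4, a ubiquitin ligase, from 7.04 to 23.9 (1.64 ± 0.32). FAM151A, opposite the acyl-CoA thioesterase ACOT11, rose from 126 to 194 (0.61 ± 0.10), and AP000688.14, opposite the carbonyl reductase CBR1, from 491 to 665 (0.43 ± 0.07). HOXA10, a homeobox gene overlapping HOXA10-AS, fell from 554 to 396 counts (-0.49 ± 0.07), and UBE2S, an E2 enzyme of the anaphase-promoting complex, from 116 to 87.1 (-0.42 ± 0.12), a call lost without the repressive (adjusted p 0.1) or the activating line (0.0604).

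To read the direction in libraries that took no part in a call, rows were called on 2 lines and their sign was read in the third. With the neutral line left out, 321 rows were called (5.52%), and 236 of them (73.5%) had the same direction in the neutral line, against 54.9% of all rows tested. Leaving out the repressive line gave 133 rows (2.29%), of which 100 (75.2%) kept their direction there, against 56.2%. Leaving out the activating line gave 273 of 5814 rows (4.70%), of which 189 (69.2%) kept it, against 55.7%. The effect in the line left out was smaller than in the pair that made the call. Its median along the direction of the call was 0.14 in the neutral, 0.42 in the repressive and 0.14 in the activating line, while the median absolute effect of the call was 0.62, 0.52 and 0.62. Of the 1807 rows with no exon opposite them, the pair without the activating line called 46, and 24 (52.2%) kept their direction there, against 53.2% of all such rows. In all, 61 rows were called the same way from every pair of lines, 38 higher and 23 lower.

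**Figure D3:**
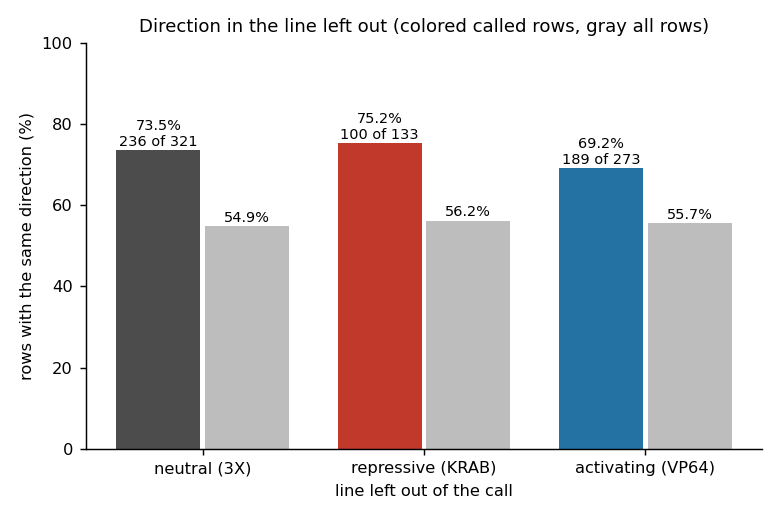
Percent of rows (y axis, from 0 to 100) whose direction in the line left out (x axis) matched that of the other 2 lines, for rows called in those 2 lines (colored bars) and for all rows tested (gray bars). The called rows lie at 73.5%, 75.2% and 69.2%, above 54.9%, 56.2% and 55.7% for all rows.

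The effect of tamoxifen differed between the lines for 281 rows (4.83%, DESeq2 likelihood ratio test, 843 at an unadjusted p below 0.05). Of the 291 rows called over the lines 74 were among them. Of the 254 with a common direction 48 differed in size, and the effect was largest in the repressive line for 43 of these 48. Of the 37 without a common direction, 26 differed. The sign opposed to the main effect was in the neutral line for 19 of the 37, in the activating line for 12 and in the repressive line for 6.

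The rows of mixed direction named by size of effect all differed between the lines. CEBPD, a bZIP transcription factor, had 131, 112 and 138 counts against 73.2, 65.3 and 67.2 in the neutral line and 153, 142 and 130 against 24.3, 30.2 and 33.5 in the repressive line, but 151, 65.7 and 138 against 141, 190 and 141 in the activating line. The main log2 fold change was -0.89 ± 0.31 (adjusted p 0.0458), and the call was lost without any 1 of 11 libraries (adjusted p up to 0.133). RP5-955M13.4, opposite the potassium channel subunit KCNG1, fell by 1.62 ± 0.32 in the repressive line, fell by 1.48 ± 0.29 in the activating line and stood at 0.09 ± 0.27 in the neutral line. AP001615.9, within RIPK4, a kinase of keratinocyte differentiation, rose by 1.65 ± 0.16 and 0.57 ± 0.16 in the repressive and activating lines against -0.04 ± 0.17 in the neutral line. SPHK2, a sphingosine kinase, rose by 1.01 ± 0.27 and 1.22 ± 0.27 in the neutral and repressive lines against -0.18 ± 0.27 in the activating line. Of the 6009 exonic bases of SPHK2, 678 lie opposite a gene without a symbol. Without the repressive line none of CEBPD, RP5-955M13.4, AP001615.9 and SPHK2 was called (adjusted p 0.817, 0.336, 0.314 and 0.4). The calls of CEBPD (0.228) and SPHK2 (0.183) were also lost without the neutral line. Those of RP5-955M13.4 (0.0811) and AP001615.9 (0.0747) were also lost without the activating line.

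Of 12 own rows of ATF4 targets 6 were called, all lower, against 2.34% of all rows tested that were called lower. With edgeR 3 were called and with limma-voom 2. The median was -0.49 over the 12, and by line 0.07 in the neutral, -1.07 in the repressive and -0.72 in the activating line. ATF4 is a transcription factor of amino acid and endoplasmic reticulum stress. TRIB3, a pseudokinase, had 46.8, 35.4 and 36.5 counts against 48.2, 24.4 and 26.4 in the neutral line, 33.2, 35.0 and 31.2 against 9.71, 3.48 and 6.29 in the repressive line and 37.7, 57.9 and 59.7 against 19.3, 24.2 and 2.76 in the activating line. The groups were apart in the repressive and activating lines and overlapped in the neutral line. DDIT3, which encodes CHOP and overlaps MARS1, had log2 fold changes of 0.36 ± 0.46, -2.99 ± 0.56 and -1.34 ± 0.46, and NUPR1 0.32 ± 0.21, -1.15 ± 0.23 and -0.80 ± 0.22, in the same order of lines. Both differed between lines (interaction adjusted p 6.49e-04 and 2.22e-04), as did TRIB3 (0.0455). The amino acid carrier SLC7A5, with 271 of its 4764 exonic bases opposite a gene without a symbol, was also called (-0.26 ± 0.08). The other called members were PHGDH of serine synthesis (-1.002 ± 0.34) and DDIT4, an inhibitor of mTOR signaling (-0.47 ± 0.15). Without the repressive line 5 of these 6 had an adjusted p from 0.495 to 0.645, and TRIB3 had 0.0692, while the list median was -0.25. Without the activating line PHGDH (0.19), DDIT4 (0.0887), DDIT3 (0.247) and NUPR1 (0.29) lost the call, and the 5 members other than TRIB3 each lost it without any 1 of 4 to 8 libraries (adjusted p up to 0.109). SLC4A5, opposite the mitochondrial folate enzyme MTHFD2, fell by 0.45 ± 0.13 (adjusted p 0.01), a call lost without the repressive line (0.484).

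**Figure D4:**
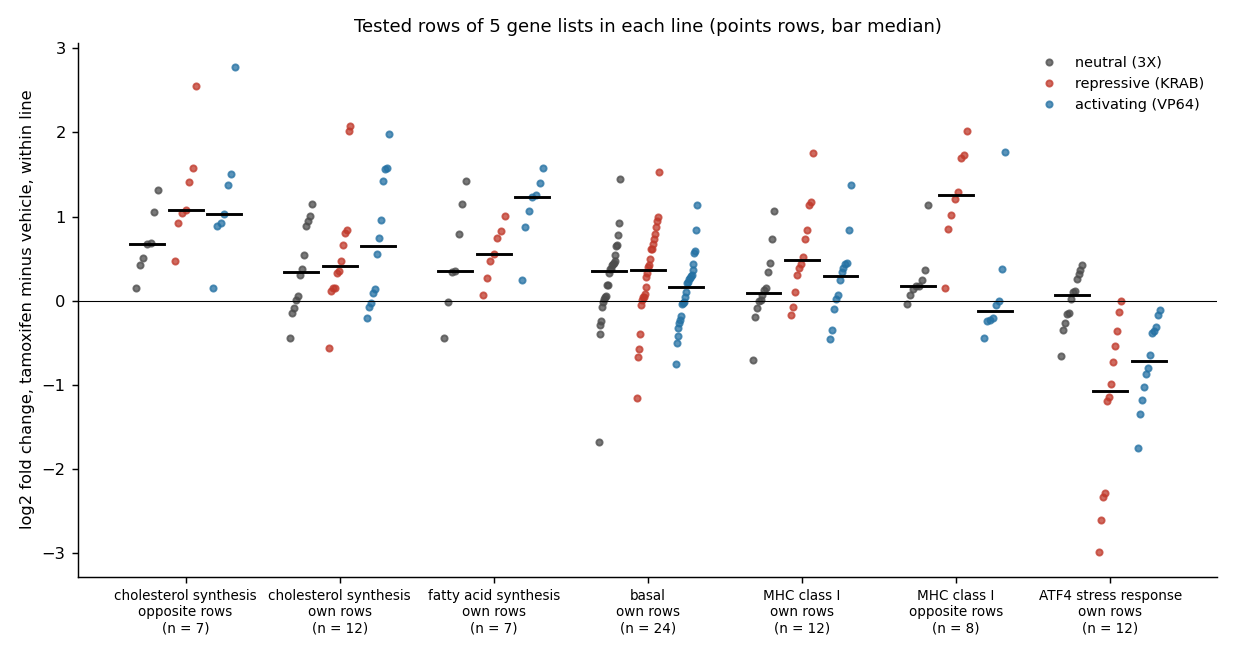
Log2 fold change within each line (y axis) of the tested rows of 5 gene lists (x axis, own rows or rows on the opposite strand), with a point for each row, color for the line and a bar for the median. The cholesterol and fatty acid rows have medians above 0 in all 3 lines, the MHC class I rows lie highest in the repressive line, and the ATF4 rows have a median of 0.07 in the neutral line against -1.07 and -0.72 in the others.

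Genes of antigen presentation by MHC class I had their largest median in the repressive line. Of 12 own rows 3 were called higher (HLA-F, HLA-B and CALR), and of 8 opposite rows 2 (TAPSAR1, opposite the peptide transporter TAP1, and CTC-425F1.4, opposite the chaperone CALR). Over all rows tested 2.67% were called higher. CALR and CTC-425F1.4 share 270 exonic bases on opposite strands, so 1 locus enters both counts. HLA-F rose by 0.68 ± 0.17 (adjusted p 0.00162) with a positive value in each line. The list medians were 0.09, 0.48 and 0.29 for own rows and 0.18, 1.25 and -0.12 for opposite rows in the neutral, repressive and activating line. TAPSAR1 had 0.24, 1.29 and -0.01 in that order (interaction adjusted p 5.45e-17), and HLA-B 0.12, 1.75 and 0.02 (0.00386). Reads of HLA genes can be shared among near-identical copies, so the split among them is uncertain. Without the repressive line none of the 5 was called, which were HLA-B (adjusted p 0.945), TAPSAR1 (0.644), CALR (0.617), CTC-425F1.4 (0.144) and HLA-F (0.0708), and the list medians were 0.12 for own and -0.02 for opposite rows. HLA-F (0.0703) and CALR (0.14) also lost the call without the activating line. HLA-B lost it with edgeR and without any 1 of 9 libraries (adjusted p up to 0.151), TAPSAR1 without any 1 of 3 (up to 0.0721) and CALR with edgeR and without the third repressive vehicle library (0.0585).

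Most other lists held few called rows. None of the 15 own rows of the interferon response was called by DESeq2, but 6 had an unadjusted p below 0.05, 11 received no adjusted p, and limma-voom called 4 and edgeR 0. Of the 15, 13 had a positive value, and the median was 1.32 in the repressive, 0.34 in the neutral and -0.37 in the activating line. Of 9 own rows of squamous differentiation 0 were called (1 with edgeR, 2 with limma-voom and 3 at an unadjusted p below 0.05), with medians of 0.12, 2.04 and -0.17 in the neutral, repressive and activating line. DESeq2, edgeR and limma-voom all called 0 own rows of the estrogen (6 tested), xenobiotic (2), NRF2 (7), G2/M phase (8), S phase (10), MYC (12), hypoxia (13), immediate early (8) and mitochondrial genome (15) lists. At an unadjusted p below 0.05 were 4 of the hypoxia, 2 of the MYC, 1 of the S phase and 1 of the xenobiotic rows, and 0 of the others. In each of these lists DESeq2 left some rows without an adjusted p, among them 3 estrogen, 2 xenobiotic and 4 NRF2 rows. The estrogen rows had medians of -0.36, -0.41 and -0.31 in the neutral, repressive and activating line. Of these 6 rows, 4 had the same direction in every line and 1 had a positive value over the lines. Of 9 androgen and glucocorticoid targets, CEBPD alone was called, with a list median of -0.53 that came from 0.30 in the neutral, -1.06 in the repressive and 0.03 in the activating line. Among lysosome genes 1 of 11 was called, against 5.00% of all rows tested. It was the row of the autophagy receptor SQSTM1, with 1582 of its 7535 exonic bases opposite MRNIP. This row fell by 0.23 ± 0.08 (adjusted p 0.0374). Its call was lost with edgeR (0.0993) and limma-voom (0.079), without the neutral (0.27) or the repressive line (0.192) and without any 1 of 7 libraries (adjusted p up to 0.103). HSPB1, a small heat shock protein, rose by 0.35 ± 0.09 (adjusted p 0.0038), a call lost without the neutral (0.0798) or the repressive line (0.127). SFN, a p53 target, rose by 0.39 ± 0.14 (adjusted p 0.0464), a call lost without any 1 of 13 libraries (adjusted p up to 0.131). The call of SFN was also lost with edgeR (0.0907) and without the neutral (0.127) or the repressive line (0.774). SFN had no common direction, at -0.07 in the activating line.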

How the data were processed

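RNA-seq libraries of the 6 groups (3 lines, vehicle or tamoxifen, 3 replicates each) were prepared by the authors with a stranded mRNA kit. The authors processed the reads with the nf-core RNA-seq workflow and Salmon 1.9.0 against GRCh37, and the deposited table holds expected counts (estimated reads per gene, not scaled for depth or length). Of its values 1.1% were not whole, and all were rounded. The aligner settings for strand are not given in the sources used here.

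Testing was limited to rows reaching 10 counts in 3 or more libraries, which kept 5816 of 57773 rows and 97.6% of counts. The additive model of line and treatment was fitted with DESeq2 1.42.0 (R 4.3.3), the authors' tool (1.28.0 per the labels), with median-of-ratios scaling, independent filtering and Benjamini-Hochberg adjustment over the 3110 of the 5816 rows that passed it. Effects within lines came from a model of 6 groups, and differences between lines from a likelihood ratio test. Fold changes are unshrunken log2 values with SE. Normalized counts are scaled by the same factors, and adjusted p-values without a named tool are from DESeq2.

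Named rows were the 10 that rose and 10 that fell with the largest smallest effect over the 3 lines, among calls with a mean of at least 50 counts and one direction, up to 5 calls without one direction, and called members of 28 gene lists. Results at some genes are not reported here. Rows singled out for separated groups were added later. The lists, members and rules were chosen with earlier results of these data known. Positions and exons came from GENCODE for GRCh37 (96.1% of rows and 90.6% of counts matched), and promoters from RefSeq for GRCh38.p14. Alternatives were edgeR 4.0.16, limma-voom 3.58.1, other scaling and filters, replicate blocks, and leaving out each line or library. The scripts were tested on simulated data.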

Additional observations from a re-analysis of the deposited data

Results flagged for a closer look

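The interaction of line and treatment flagged 281 rows. Those given here were named in the report for the size of their effects, and other named rows with a called interaction are described there. Each is listed for a difference of the tamoxifen effect between the lines, with the adjusted p of the DESeq2 likelihood ratio test and the number of lines where the groups did not overlap. No cause was tested.

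Of the rows with one direction, CTD-2636A23.2, opposite HMGCS1, had an adjusted p of 1.28e-18 and stood higher with tamoxifen in 9 of 9 libraries. CTC-564N23.2, opposite ZBED3, had 0.0054 and was lower with no overlap in all 3 lines. Of the rows with mixed direction, CEBPD had 1.28e-11 and was lower without overlap in the neutral and repressive lines only. AP001615.9, opposite RIPK4, had 3.77e-10 and was higher without overlap in the repressive and activating lines. RP5-955M13.4, opposite KCNG1, had 7.29e-04 and was lower without overlap in the same 2 lines. SPHK2 had 0.00947 and was higher without overlap in the neutral and repressive lines.

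Groups of 3 libraries were too small for the test of single libraries that stand apart.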

How the results depend on the processing

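Over the 18 fits that each left out 1 library, the count of called rows lay between 240 and 308 (291 with all libraries), that with one direction between 220 and 277 (254), and that with an interaction between 224 and 278 (281). The share of rows with the same direction in the line left out ranged from 70.4% to 76.3% for the neutral, 73.7% to 81.1% for the repressive and 65.3% to 72.6% for the activating line. Averaging the 3 effects of the model with 6 groups, which takes differences between lines out of the spread, called 446 rows. Without the repressive line 133 rows were called, all 133 of one direction in the other 2 lines. Testing only the 1807 rows with no opposite-strand exon overlap called 45 rows, 38 of them of one direction, and 32 interactions. There the called rows kept their direction in the neutral line in 65.8% and in the activating line in 52.2% of cases, against 54% and 53.2% of all such rows, so among these rows the activating line showed no excess over the background. In the repressive line the share was 73.7% (14 of 19 rows) against 56.7%. With edgeR 224 rows were called and with limma-voom 281. No named row reversed its sign under any alternative. Correlations of vehicle with tamoxifen libraries gave no sign that the replicate numbers pair the samples. The same-number pairs had correlations from -0.302 to 0.138, with 2 of 9 above 0.1. The pairs of other numbers had -0.155 to 0.176, with 6 of 18 above 0.1. With 3 libraries per group these values cannot show that the samples were unpaired. With the replicate block of 9 pairs within lines 201 rows were called, and with a block for the number shared by the lines 272. Of the 12 own rows of cholesterol genes 7 held too few counts for an adjusted p, and the cause was not tested.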

Other observations

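The remaining lists gave these values, with all fold changes on the log2 scale. Over all rows tested 5.00% were called. Of the unfolded protein response list, 1 of 9 own rows was called (CALR, higher), and of 5 opposite rows RP11-110I1.6, opposite the chaperone HYOU1, fell by 0.28 ± 0.10 and CTC-425F1.4 rose. Here too CALR and CTC-425F1.4 are partners at 1 locus. RP11-110I1.6 differed between lines (-0.37, 0.18 and -0.65 in the neutral, repressive and activating line, interaction adjusted p 3.38e-05), and its call was lost without any 1 of 11 libraries (adjusted p up to 0.125). Its call was also lost with edgeR (0.069) and without the neutral (0.281) or the activating line (0.632). Of the heat shock list 1 of 10 own rows was called and of the p53 targets 1 of 8. Of the 10 own rows of the epithelial-mesenchymal list TWIST1 alone was called (0.84 ± 0.28, from 14.6 to 24.97 counts), a call lost without any 1 of 6 libraries (adjusted p up to 0.0888). The call of TWIST1 was also lost with edgeR (0.0701) and without the neutral (0.245), the repressive (0.0903) or the activating line (0.105).

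Among opposite rows of the immediate early list 2 of 4 were called. HOOK2, opposite JUNB, a subunit of AP-1, rose by 0.55 ± 0.12 (adjusted p 1.01e-04) with effects of 0.21, 1.11 and 0.34 by line (interaction adjusted p 2.53e-04). XXbac-BPG252P9.10, opposite IER3, which is also the called row of the NF-kB list, rose by 0.41 ± 0.13 (adjusted p 0.0186), and the call was lost without the first neutral tamoxifen library (0.0693) and without the second repressive vehicle library (0.0542). The call was also lost with edgeR (0.0587), without the neutral line (0.365) and without the repressive line (0.0945). ENOSF1, opposite thymidylate synthase (TYMS), rose by 0.23 ± 0.07 in the S phase list. RP11-603J24.17, opposite PA2G4, a regulator of growth, fell by 0.31 ± 0.08 in the MYC list, and RP1-261G23.7, opposite VEGFA, the vascular growth factor, fell by 0.67 ± 0.19 in the hypoxia list. AC078883.4, opposite the integrin ITGA6, rose by 0.57 ± 0.19 in the basal list, a call lost without any 1 of 7 libraries (adjusted p up to 0.11). The call of AC078883.4 was also lost with edgeR (0.0755) and without the neutral (0.0757) or the repressive line (0.529). Without the repressive line HOOK2 (adjusted p 0.165), ENOSF1 (0.174), RP11-603J24.17 (0.315) and RP1-261G23.7 (0.108) were not called, nor was ENOSF1 without the neutral (0.0581) or RP1-261G23.7 without the activating line (0.139). The call of ENOSF1 was lost with edgeR as well (adjusted p 0.0559).

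ADIRF and ADIRF-AS1, which overlap by 677 exonic bases on opposite strands, both rose with no overlap of the groups in any line, ADIRF from 194 to 242 counts (0.32 ± 0.09, adjusted p 0.00491, and 0.125 without the neutral line) and ADIRF-AS1 from 1786 to 2336 (0.39 ± 0.06, adjusted p 2.35e-07). The most abundant rows with separated groups were RP11-442H21.2, which fell from 31530 to 25280 counts (-0.34 ± 0.06), and RP11-386G11.10, opposite the tubulin TUBA1B, which rose from 20350 to 25220 (0.30 ± 0.06).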
